A study of Mus musculus with 12 samples.

Results

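Collagen chains, the matrix metalloproteinases (Mmps) that cut them and the tissue inhibitors of metalloproteinases (Timps) were followed in scraped mouse colon epithelium. The members were taken by symbol: every collagen chain, Mmp and Timp in the expression files, with Sparc, Dcn, Postn and Lum added, which gave 75 of 24391 genes. They comprise 44 collagen chains, 23 Mmps, 4 Timps and 4 other matrix proteins. The 12 libraries are of total RNA from C57BL/6 mice aged 18 weeks, 4 from controls, 4 from animals given AOM/DSS, and 4 from animals given AOM/DSS with curcumin, called curcumin here. AOM is azoxymethane, a chemical carcinogen, and DSS is dextran sulfate sodium, a polymer that inflames the colon; both were given to the AOM/DSS and the curcumin animals alike, and curcumin is a polyphenol of turmeric. In all groups the epithelium was scraped off with a glass slide once the proximal part of the colon and any tumours on its right side had been removed; slow spins and washes then lowered the share of blood cells. Doses and times are not given in the sources used here, nor is it stated that each library is a separate animal, so p-values measure the spread between these samples, which may be technical.

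Collagens are chains wound in threes into the ropes, sheets and filaments of connective tissue; fibroblasts secrete most fibrillar collagen, and type IV collagen forms the sheet under an epithelium. Mmps are zinc proteases that cut collagen and other matrix and surface proteins, some secreted and some held in the membrane, and Timps bind and block them. In the gut, Paneth cells of the small intestine are the known normal source of Mmp7, and Mmp7 and several other Mmps are known in intestinal tumours.

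Values are FPKM, reads scaled to gene length and library depth, so that levels can be compared between genes. Recovered read totals ran from 5567988 to 15968416 per library, of which the members took 2495 to 10143 reads, or 0.0387% to 0.0724%. The epithelial marker Epcam stood at 626 to 928 FPKM, so the labelled tissue had its markers in every library. Libraries fell into a GC-rich set (control 0, AOM/DSS 0 and 1, curcumin 0 and 1) and an AT-rich set (the other 7 libraries), by whether GC-rich genes read high or low in them; numbers after a group name the replicate. AOM/DSS 3 stood apart for these genes, and values without it are given beside the results it touches.

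Most members were hardly present. In all, 47 of the 75 stayed below 1 FPKM in every library, 7 of them at 0 throughout. Of the collagens, 31 of 44 stayed below 1 FPKM: Col2a1, Col5a1, Col5a2, Col5a3, Col11a1, Col11a2, Col24a1 and Col27a1 among the fibrillar chains, Col4a3 to Col4a6 of basement membrane, Col6a3 to Col6a6 of beaded filaments, and Col7a1, the anchoring fibril under epithelia. The rest of these were Col8a2, Col9a1, Col9a2, Col10a1, Col12a1, Col13a1, Col14a1, Col17a1, Col19a1, Col22a1, Col23a1, Col25a1, Col26a1 and Col28a1. Of these collagens, Col6a6, Col19a1 and Col26a1 were at 0 in all 12 libraries, and Col5a2 came closest to the threshold with 0.658 FPKM in AOM/DSS 3. Among the Mmps, 15 of 23 stayed below 1 FPKM: Mmp1a, Mmp1b, Mmp21 and Mmp27 at 0 in all libraries, and Mmp3, Mmp8, Mmp9, Mmp11, Mmp12, Mmp16, Mmp17, Mmp19, Mmp20, Mmp23 and Mmp25 above 0 somewhere, up to 0.654 FPKM for Mmp23. Lum, a proteoglycan of collagen fibrils, reached 0.749 FPKM at most, in control 0.

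Low levels here are limited by depth. Mmp9, gelatinase B, was at 0 in all 4 curcumin libraries, where 3 reads would have been worth 0.0569 to 0.101 FPKM. It stood at 0 to 0.0919 FPKM in controls and 0.0726 to 0.506 FPKM in AOM/DSS, at most 0.137 FPKM without AOM/DSS 3. A lower level of Mmp9 with curcumin was therefore not detectable at this depth against controls. Such floors cover counting error only.

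The other 28 members reached 1 FPKM in at least 1 library, and 5 of them did so in all 12: Mmp15, Timp3, Mmp14, Timp4 and Col16a1. A test across all genes was run on those at 1 FPKM or more in at least 4 libraries, which took 12052 genes and 13 members (Col3a1, Col8a1, Col16a1, Col20a1, Sparc, Dcn, Postn, Mmp14, Mmp15, Mmp28, Timp2, Timp3 and Timp4). The remaining 15 that reached 1 FPKM did so in too few libraries to be tested. Mmp28, at a control mean of 0.915 FPKM, passed this filter with all 8 treated libraries and 2 controls at 1 FPKM or more.

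**Figure D1:**
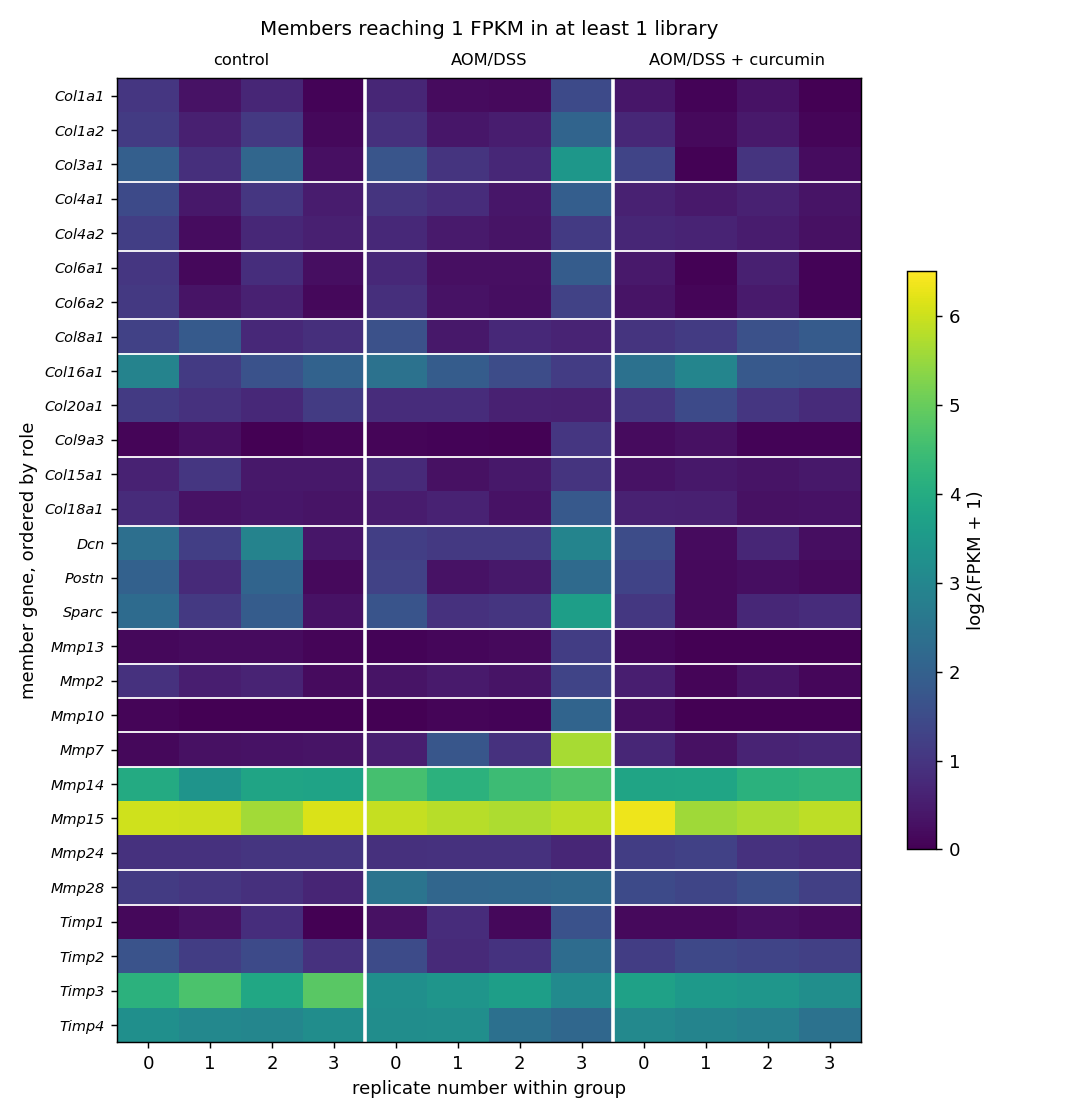
FPKM of the 28 members that reached 1 FPKM in any library (rows) in the 12 libraries (columns, by group and replicate), as colour on a log2(FPKM + 1) scale. Mmp15 is high in all columns, Mmp14 and Timp3 follow, and the AOM/DSS 3 column is bright for many rows that are near 0 elsewhere, Mmp7 at 49.3 FPKM above all.

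Mmp15, a membrane-bound Mmp, was the most abundant member. It stood at 64.8, 62.9, 47.5 and 68.9 FPKM in control 0 to 3, at 59.5, 55.1, 50.7 and 57.0 FPKM in AOM/DSS 0 to 3, and at 80.2, 47.0, 51.4 and 56.5 FPKM in curcumin 0 to 3. The 3 groups overlapped, and the highest and the lowest of the 12 libraries were both of curcumin. The means, 61.0 ± 9.34, 55.6 ± 3.70 and 58.8 ± 14.8 FPKM (SD, n = 4 each), lay within the spread of the groups. For AOM/DSS minus control the difference was -0.12 on the log2(FPKM + 1) scale, with a 95% interval from -0.48 to 0.23 (limma adjusted p = 0.792).

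Mmp28, Mmp14 and Timp3 were the members called between AOM/DSS and control, the comparison that asks what the carcinogen with colitis did to the epithelium. Of 13 members tested, 2 rose and 1 fell at a limma adjusted p below 0.05, against 1.27% of all 12052 genes tested (0.456% higher and 0.813% lower). The 4 AOM/DSS libraries lay wholly above the 4 controls for 2 members and wholly below them for 1, the same 3 genes, against 2.38% and 3.63% of all tested genes. The median log2 difference was -0.14 over the 13 members and 0.015 over all tested genes.

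Mmp28, epilysin, a secreted Mmp known from epithelia and wound edges, had the smallest adjusted p of the members. Its levels were 1.18, 1.02, 0.869 and 0.592 FPKM in control 0 to 3, then 4.67, 3.44, 3.51 and 3.77 FPKM in AOM/DSS 0 to 3, then 1.76, 1.55, 1.96 and 1.33 FPKM in curcumin 0 to 3. The groups did not overlap: all controls were below all curcumin libraries, and these were below all AOM/DSS libraries. Group means were 0.915 ± 0.250, 3.85 ± 0.569 and 1.65 ± 0.270 FPKM (SD, n = 4 each), a 4.20-fold ratio of AOM/DSS to control. The difference of AOM/DSS minus control was 1.34 on the log2(FPKM + 1) scale (SE 0.14, 95% interval 1.03 to 1.65, limma adjusted p = 0.00166). It was 1.20 within the GC-rich libraries, which hold 1 control, and 1.35 within the AT-rich ones, where neither passed the threshold (limma adjusted p = 0.436 and 0.0946), and 1.35 without AOM/DSS 3. These levels rest on few reads, 12 to 28 per control library and 69 to 130 per AOM/DSS library.

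The 3' end of Mmp28 overlaps that of 1700020L24Rik, a gene on the opposite strand, over 466 of the 3874 exon bases of Mmp28 (12%) in the GENCODE annotation of GRCm38. This neighbour moved the same way: 1.77, 1.90, 1.93 and 1.30 FPKM in control 0 to 3, 7.99, 4.83, 5.99 and 6.69 FPKM in AOM/DSS 0 to 3, and 4.02, 2.64, 3.4 and 2.14 FPKM in curcumin 0 to 3. It rose by 1.43 on the log2 scale with AOM/DSS (limma adjusted p = 0.00274) and fell by 0.87 between AOM/DSS and curcumin (limma adjusted p = 0.0308). The ratio of Mmp28 to its neighbour ran from 0.437 to 0.713 over the 12 libraries. Whether the counting used strand is not given in the sources used here, so in the shared bases the reads of the pair cannot be told apart, and the rise of Mmp28 is uncertain to that extent.

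Mmp14, the membrane-bound collagenase that also activates pro-Mmp2, stood at 14.8, 9.33, 12.9 and 12.8 FPKM in control 0 to 3. In AOM/DSS 0 to 3 it stood at 22.8, 17.1, 20.8 and 24.9 FPKM, and in curcumin 0 to 3 at 12.9, 13.2, 16.7 and 18.0 FPKM. Every AOM/DSS library was above every control, while the curcumin libraries overlapped both groups. The means were 12.4 ± 2.27, 21.4 ± 3.31 and 15.2 ± 2.56 FPKM (SD, n = 4 each), and the rise with AOM/DSS was 0.74 on the log2(FPKM + 1) scale (SE 0.16, 95% interval 0.39 to 1.09, limma adjusted p = 0.0469). This call sits at the threshold and was kept in 6 of 23 alternatives; leaving out 1 library ended it in 11 of 12 cases, with adjusted p up to 0.134. The difference was 0.40 within the GC-rich libraries and 0.92 within the AT-rich ones (limma adjusted p = 0.724 and 0.118), and 0.67 without AOM/DSS 3 (limma adjusted p = 0.116).

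Timp3, the inhibitor that binds to matrix and also blocks membrane-shedding proteases, went the other way. It was at 17.1, 24.3, 13.7 and 27.6 FPKM in control 0 to 3, at 8.36, 9.45, 11.5 and 7.61 FPKM in AOM/DSS 0 to 3, and at 12.2, 10.3, 9.72 and 8.26 FPKM in curcumin 0 to 3. Every treated library of either group was below every control, and the treated groups overlapped each other. Means were 20.7 ± 6.39, 9.24 ± 1.71 and 10.1 ± 1.64 FPKM (SD, n = 4 each). It fell by 1.05 on the log2(FPKM + 1) scale with AOM/DSS (SE 0.20, limma adjusted p = 0.0273). The call was kept in 13 of 23 alternatives and in 8 of 12 cases with 1 library left out, and was lost without control 1, control 3, AOM/DSS 0 or AOM/DSS 3 (limma adjusted p = 0.0645, 0.0938, 0.0734 and 0.0837). With the replicate number as a block it was also lost (limma adjusted p = 0.0716). Within the GC-rich libraries the difference was -0.87 and within the AT-rich ones -1.08 (limma adjusted p = 0.466 and 0.241). Of the exon bases of Timp3, 21.3% are shared with Syn3 on the opposite strand, which stood at 0.372 FPKM at most.

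**Figure D2:**
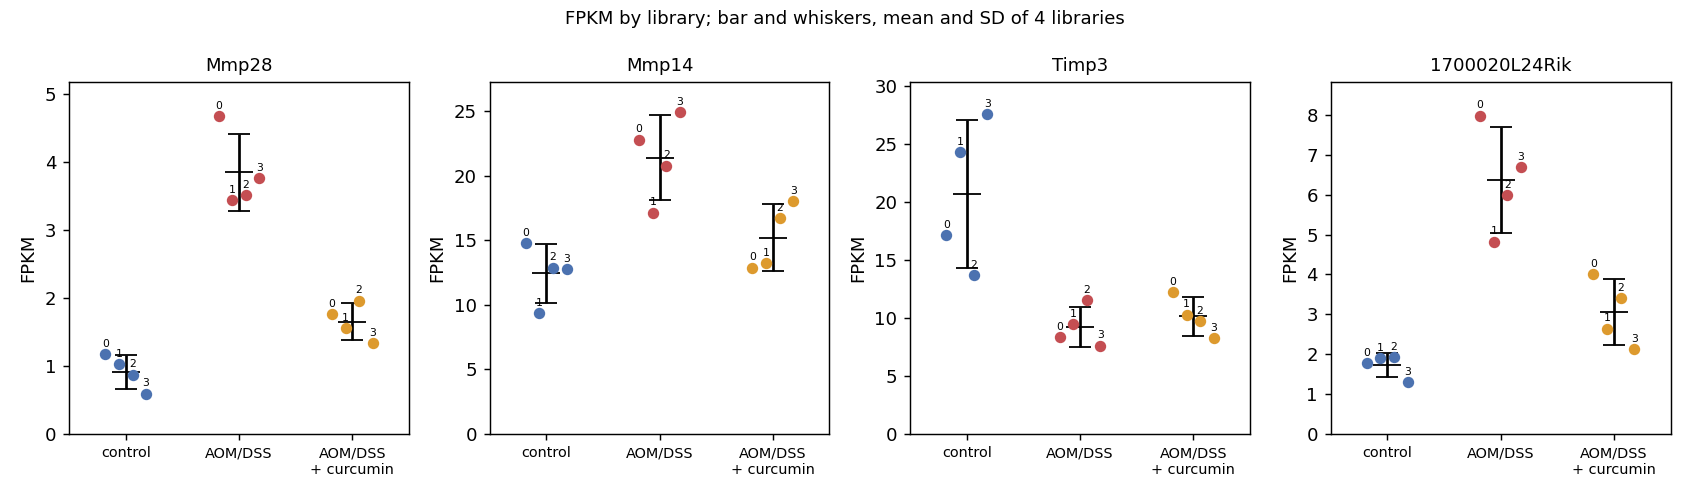
FPKM of Mmp28, Mmp14, Timp3 and 1700020L24Rik, the gene that overlaps Mmp28 (y axes, starting at 0), in the 3 groups (x axis), with a point per library, numbered by replicate, and bars for the mean and SD of 4. Mmp28 and its neighbour each show 3 separate levels, Mmp14 is above all controls in AOM/DSS and overlaps both groups with curcumin, and Timp3 lies below all controls in both treated groups.

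Fibroblast markers are given beside these results because Mmp14 and Timp3 are known in stromal cells too. The summed level of 10 fibroblast genes, none at 0 in every library, was 7.29 to 20.3 FPKM in controls, 11.1 to 70.9 FPKM in AOM/DSS and 5.47 to 10.6 FPKM in curcumin. Control and AOM/DSS overlapped in it, while all curcumin libraries lay below all of AOM/DSS, as did 4.27% of single tested genes. Vim, its largest part, overlapped, at 5.30 FPKM in curcumin 0 and 4.67 FPKM in AOM/DSS 0. The neutrophil sum also lay wholly below, at 0.215 to 0.608 FPKM in curcumin against 0.840 to 12.2 FPKM in AOM/DSS. Sums of the other marker lists overlapped. The part of fibroblasts in the levels of Mmp14 and Timp3 was not tested. In bulk RNA, fewer cells of a type and less RNA per cell cannot be told apart.

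The windows from 250 bases before to 50 after the start of Mmp28 and Mmp14 are shown because both genes rose together (RefSeq, GRCm38.p6, transcribed strand, 5' to 3'). Capitals mark the GC box letters GGGCGG on either strand, which lie in 35.7% of 32851 RefSeq windows of this length. The Mmp28 window is chr11:83462991-83463290 on the minus strand and the Mmp14 window chr14:54431348-54431647 on the plus strand. A match is a description, not a site.
Mmp28: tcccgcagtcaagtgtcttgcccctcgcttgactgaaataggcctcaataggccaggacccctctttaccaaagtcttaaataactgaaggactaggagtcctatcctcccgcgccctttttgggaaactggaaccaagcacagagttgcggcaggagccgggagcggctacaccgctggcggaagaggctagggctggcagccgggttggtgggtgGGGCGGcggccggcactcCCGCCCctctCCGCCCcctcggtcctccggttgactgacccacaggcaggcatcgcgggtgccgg
Mmp14: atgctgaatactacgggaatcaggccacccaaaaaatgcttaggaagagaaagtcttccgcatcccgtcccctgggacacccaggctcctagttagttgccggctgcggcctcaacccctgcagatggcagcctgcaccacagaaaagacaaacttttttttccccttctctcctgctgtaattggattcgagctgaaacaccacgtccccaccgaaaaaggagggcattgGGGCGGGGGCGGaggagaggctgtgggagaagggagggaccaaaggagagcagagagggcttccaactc
The Mmp28 window holds 3 such matches, starting 33, 15 and 5 bases before the start, and that of Mmp14 holds 2, starting 19 and 13 bases before it. Neither holds the TATA box letters TATAAA nor the AP-1 letters TGANTCA. The window of Timp3 likewise holds 2 GC boxes and neither of the other motifs.

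Between curcumin and AOM/DSS, the comparison that asks what curcumin did in treated animals, Mmp28 was the only member called. It fell by 0.87 on the log2(FPKM + 1) scale (SE 0.14, 95% interval -1.18 to -0.56, limma adjusted p = 0.0133), to 0.429 of its AOM/DSS mean. That is 1 of 13 members lower and 0 higher, against 0.348% and 0.730% of all tested genes (1.08% either way). All 4 curcumin libraries lay below all 4 of AOM/DSS for this 1 member and above them for 0, against 4.27% and 4.95% of tested genes. This comparison and the previous one share the AOM/DSS libraries, so the opposite signs of Mmp28 in them are not independent. Within the GC-rich libraries the Mmp28 difference was -0.92 and within the AT-rich ones -0.82, and neither passed the threshold (limma adjusted p = 0.272 and 0.321).

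In this comparison 3 of 6 tested fibroblast markers, 4 of 5 for macrophages and 2 of 5 for B and plasma cells had an unadjusted p below 0.05. So had 1 of 3 for smooth muscle, 1 of 1 each for neutrophils, Paneth cells and endothelium, 0 of 1 for glia and 0 of 8 for epithelium. All tested genes had 14.5%, and 0 of the markers were called by limma or by limma voom. Median log2 differences were -0.78 for fibroblasts and -1.06 for macrophages. They were negative for B and plasma cells and smooth muscle too, and for the 1 tested gene each of neutrophils and Paneth cells. For endothelium the value was 0.75, that of Pecam1 alone. Its untested genes peaked lower in curcumin than in AOM/DSS. The peaks were 0.0778 against 1.08 FPKM for Cdh5 and 0.0228 against 0.270 FPKM for Kdr. They were 0.0320 against 0.263 FPKM for Tie1, 0.182 against 0.299 FPKM for Tek and 0.0849 against 0.596 FPKM for Emcn. The summed fibroblast and neutrophil levels, given above, did not overlap between curcumin and AOM/DSS. The part of these cells in the lower Mmp28 was not tested.

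For Mmp14 the difference of curcumin minus AOM/DSS was -0.47 (SE 0.16, 95% interval -0.82 to -0.12), which missed the threshold (limma adjusted p = 0.200), and the libraries overlapped. Timp3 differed by 0.12 (SE 0.20, 95% interval -0.31 to 0.56, limma adjusted p = 0.844). Col20a1, a collagen of the FACIT class that sits on fibrils, came after Mmp28 and Mmp14 by unadjusted p. It stood at 1.137, 0.893, 0.668 and 1.17 FPKM in control 0 to 3, at 0.778, 0.770, 0.520 and 0.480 FPKM in AOM/DSS 0 to 3, and at 1.05, 1.73, 1.04 and 0.733 FPKM in curcumin 0 to 3. Curcumin 3 was below AOM/DSS 0 and 1, so the groups overlapped, and the difference of 0.37 did not pass (SE 0.17, limma adjusted p = 0.332).

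Between curcumin and control, 0 of 13 members were called by limma, against 0.141% of all tested genes (0.0913% higher and 0.0498% lower), and 0 by limma voom on the recovered reads. At an unadjusted p below 0.05 there were 2 members, Mmp28 higher and Timp3 lower, against 5.87% and 6.31% of tested genes. They were also those whose libraries did not overlap: 1 lower and 1 higher, against 4.55% and 3.72% of tested genes. Timp3 differed by -0.93 (SE 0.20, limma adjusted p = 0.10), and passed without control 2 (-1.10, limma adjusted p = 0.0446). Mmp28 differed by 0.47 (SE 0.14, 95% interval 0.16 to 0.78, limma adjusted p = 0.212). Mmp14 differed by 0.27 (limma adjusted p = 0.525).

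Dcn, decorin, a small proteoglycan that coats collagen fibrils, came next by unadjusted p. Its levels were 4.15, 1.32, 6.5 and 0.309 FPKM in control 0 to 3, 1.32, 1.11, 1.13 and 6.65 FPKM in AOM/DSS 0 to 3, and 1.85, 0.147, 0.625 and 0.173 FPKM in curcumin 0 to 3. The controls were spread over most of the range, AOM/DSS 3 stood far above its group, and the groups overlapped. The difference of curcumin minus control was -1.06 with an SE of 0.55 (limma adjusted p = 0.459). Timp4, an inhibitor with a narrower tissue range, completed the members with a mean of 5 FPKM or more that was reached in more than 1 library. It stood at 8.44, 7.23, 6.94 and 8.13 FPKM in control 0 to 3, at 8.06, 8.22, 4.25 and 3.5 FPKM in AOM/DSS 0 to 3, and at 7.39, 6.65, 6.13 and 4.42 FPKM in curcumin 0 to 3. Its groups overlapped, and AOM/DSS minus control was -0.38 (limma adjusted p = 0.508).

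**Figure D3:**
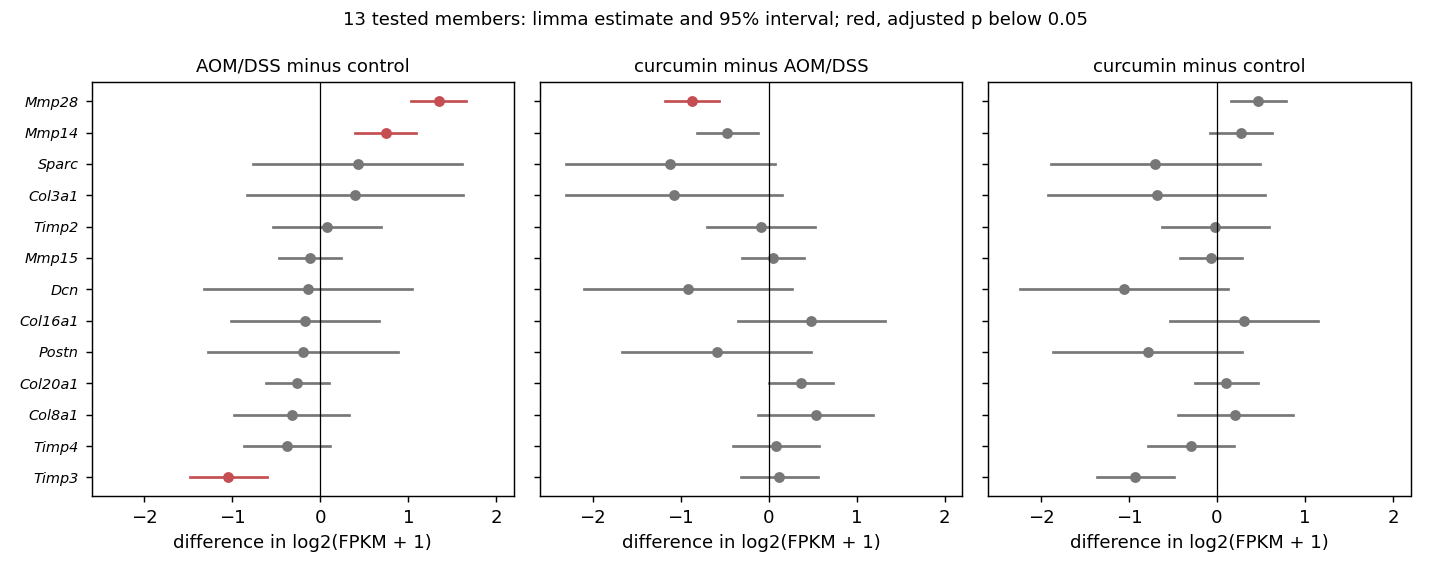
Differences on the log2(FPKM + 1) scale with 95% intervals (x axis) for the 13 tested members (rows) in the 3 comparisons (panels). Red points passed a limma adjusted p of 0.05: Mmp28, Mmp14 and Timp3 for AOM/DSS minus control and Mmp28 for curcumin minus AOM/DSS; intervals of Col3a1, Sparc, Dcn and Postn are wider than that of Mmp28.

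Members known from fibroblasts had wide intervals. The SE of the log2 difference was 0.57 for Col3a1, 0.55 for Sparc and 0.50 for Postn against 0.14 for Mmp28. Col3a1, the fibrillar type III chain, and Sparc, a collagen-binding glycoprotein, are given by library as examples chosen after their values were seen. Col3a1 was at 2.88, 0.849, 3.45 and 0.202 FPKM in control 0 to 3, at 2.27, 0.953, 0.642 and 9.83 FPKM in AOM/DSS 0 to 3, and at 1.5, 0.0184, 0.970 and 0.152 FPKM in curcumin 0 to 3. Sparc was at 3.86, 1.12, 2.72 and 0.244 FPKM, then 2.24, 0.916, 0.990 and 11.4 FPKM, then 1.09, 0.116, 0.657 and 0.776 FPKM in the same order. For both, AOM/DSS 3 was highest of the 12 libraries, and the controls alone spanned more than the distance between group means.

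Several differences shifted without AOM/DSS 3, and some of them took the other sign. For AOM/DSS minus control, Col3a1 went from 0.39 with it to -0.19 without it and Sparc from 0.42 to -0.18, all far from the threshold (limma adjusted p from 0.785 to 0.90). Timp2, a broadly expressed inhibitor, went from 0.072 to -0.24, and Dcn from -0.14 to -0.59. Curcumin minus AOM/DSS went from -1.07 to -0.50 for Col3a1 and from -1.12 to -0.51 for Sparc. None of Col3a1, Sparc, Dcn and Postn was called with or without that library.

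AOM/DSS 3 held the highest value of the 12 libraries for 38 of the 68 members above 0 (55.9%), against 13.1% of the 19233 genes above 0. Among the 12052 tested genes the share was 8.31%. Of all libraries this one had the most genes above 0, 17127. Some of the 38 rest on few reads there, with Col8a2, Col9a1 and Col22a1 on 2 each. Col2a1, above 0 in that library only, was taken as 1 read. AOM/DSS 3 was highest for 22 of 41 collagens, 11 of 19 Mmps, 2 of 4 Timps and 3 of the 4 other matrix proteins. It had 24 members at 1 FPKM or more, against 6 to 19 in the other libraries. Of 7 members that reached 1 FPKM in exactly 1 library, 6 did so there (Col9a3, Col18a1, Mmp2, Mmp10, Mmp13 and Timp1), against 40.2% of the 649 genes with that pattern. These counts describe 1 library and carry no test.

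Mmp7, matrilysin, a secreted Mmp without the hinge and haemopexin domains of its relatives, was the extreme case. It stood at 0.111, 0.224, 0.245 and 0.275 FPKM in control 0 to 3, at 0.464, 2.36, 0.894 and 49.3 FPKM in AOM/DSS 0 to 3, and at 0.608, 0.233, 0.565 and 0.618 FPKM in curcumin 0 to 3. AOM/DSS 3 was 20.9-fold above the next library, AOM/DSS 1, on 646 reads. All 4 AOM/DSS libraries were above all controls, as for 2.38% of tested genes, though AOM/DSS 0 was below 3 curcumin libraries. That separation rests on few reads, 1, 1, 3 and 3 in control 0 to 3 and 4 in AOM/DSS 0. Without AOM/DSS 3 the AOM/DSS mean was 1.24 ± 0.995 FPKM (SD, n = 3). Mmp7 was outside the test because it reached 1 FPKM in too few libraries. Its exons share 11.5% of their bases with AV064505 on the opposite strand, which stood at 4.62 FPKM in AOM/DSS 3.

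Mmp10 and Mmp13, chosen after their values were seen, were alike in this. Mmp10, stromelysin 2, was at 3.28 FPKM in AOM/DSS 3 on 85 reads and at 0.185 FPKM at most elsewhere, a 17.8-fold gap. Mmp13, a collagenase, was at 1.25 FPKM there on 50 reads and at 0.147 FPKM at most elsewhere, an 8.50-fold gap. Timp1, an inducible inhibitor, was at 2.11 FPKM there against 0.806 FPKM at most elsewhere, and Mmp2, the gelatinase of stromal cells, at 1.54 against 0.895 FPKM. Mmp3 and Mmp12, stromelysin 1 and the macrophage elastase, were also highest there, at 0.149 and 0.316 FPKM on 4 and 17 reads. So were Mmp9 at 0.506 FPKM on 24 reads, 3.69-fold above the next library, and Mmp11 at 0.439 FPKM on 15 reads, 2.46-fold above it.

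**Figure D4:**
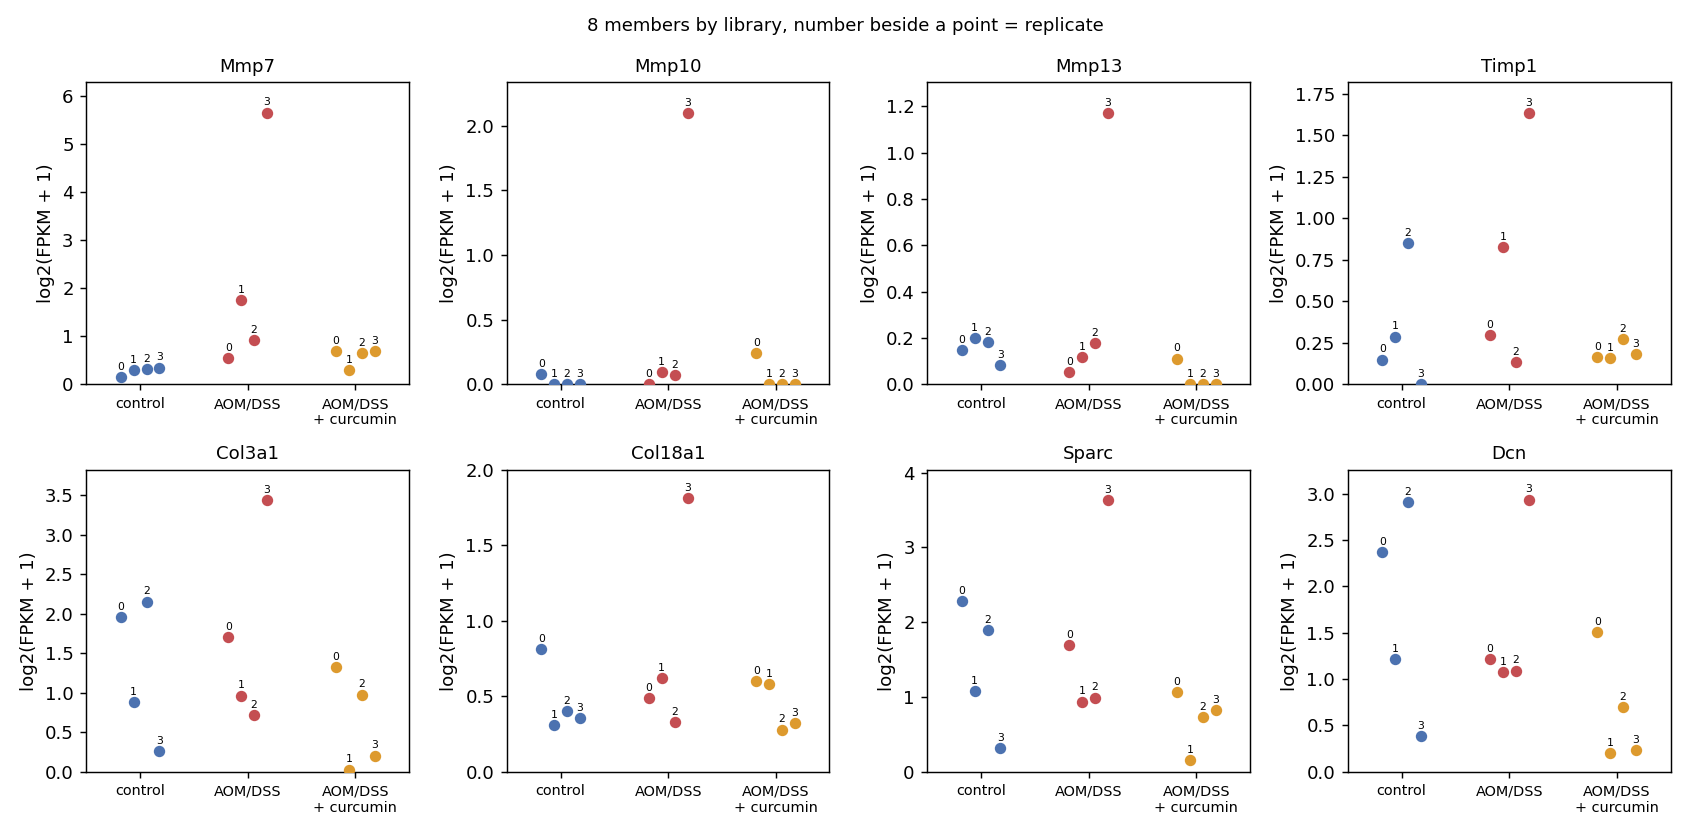
Levels of 8 members, 1 per panel, as log2(FPKM + 1) (y axes) in the 3 groups (x axis), 1 point per library with its replicate number. AOM/DSS 3 is the highest point in each panel, and Mmp7 (49.3 against 2.36 FPKM in the next library) and Mmp10 (3.28 against 0.185 FPKM) show the widest gaps, while Dcn in control 2 (6.5 FPKM) is close to AOM/DSS 3 (6.65 FPKM).

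Markers of other cells moved with that library too. The summed level of 4 Paneth cell genes was 168 FPKM in AOM/DSS 3 and 16.7 FPKM in the next library, with 1.72 to 12.5 FPKM in controls and 2.00 to 7.77 FPKM in curcumin, and none of the 4 was at 0 throughout. Defensin genes among them are near-identical copies, so their split is uncertain. The fibroblast sum was 70.9 FPKM there against 20.3 FPKM at most elsewhere, and most of it was Vim, at 55.9 FPKM. Pdgfra, Fbln1, Dpt, Mfap5 and Twist1 were also highest in AOM/DSS 3, while Pdgfrb, Thy1, Cd34 and Pi16 were not. The macrophage sum of 7 genes was 56.3 FPKM there against 53.0 FPKM in AOM/DSS 2. Of 31 tested genes of all marker lists, epithelial ones included, 0 were called by limma or by limma voom in any comparison, and 8, 13 and 3 had an unadjusted p below 0.05 in the AOM/DSS against control, curcumin against AOM/DSS and curcumin against control tests, where all tested genes had 13.5%, 14.5% and 12.2%. The neutrophil sum, with Elane at 0 in every library, was highest in AOM/DSS 1. The part of these cells in the high Mmps and collagens of AOM/DSS 3 was not tested.

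Of the 11 Mmps highest in AOM/DSS 3, Mmp3, Mmp7, Mmp10, Mmp12 and Mmp13 are neighbours. The rest, Mmp2, Mmp9, Mmp11, Mmp14, Mmp19 and Mmp23, lie on other chromosomes. Of the 23 Mmps, 10 are within 427 kb of chromosome 9 (RefSeq, GRCm38.p6, 7272514 to 7699585): Mmp1a, Mmp1b, Mmp3, Mmp7, Mmp8, Mmp10, Mmp12, Mmp13, Mmp20 and Mmp27. Start windows of Mmp7, Mmp10 and Mmp13 are shown because these 3 genes were high together in 1 library. Capitals mark 3 motifs searched on both strands, none of which overlaps another here. The AP-1 letters are TGANTCA, found in 7.81% of all 32851 windows. The TATA box letters are TATAAA, found in 13.6%. The TCF/LEF letters are CTTTGA, found in 16.0%. The windows are chr9:7691840-7692139 on the plus strand, chr9:7502092-7502391 on the plus strand and chr9:7272264-7272563 on the plus strand.
Mmp7: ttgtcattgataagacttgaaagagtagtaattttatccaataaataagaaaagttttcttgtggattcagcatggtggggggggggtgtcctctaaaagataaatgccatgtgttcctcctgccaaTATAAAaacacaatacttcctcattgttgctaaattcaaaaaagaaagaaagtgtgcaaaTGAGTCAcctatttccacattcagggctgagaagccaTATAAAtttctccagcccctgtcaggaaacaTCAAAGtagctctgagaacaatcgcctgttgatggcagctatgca
Mmp10: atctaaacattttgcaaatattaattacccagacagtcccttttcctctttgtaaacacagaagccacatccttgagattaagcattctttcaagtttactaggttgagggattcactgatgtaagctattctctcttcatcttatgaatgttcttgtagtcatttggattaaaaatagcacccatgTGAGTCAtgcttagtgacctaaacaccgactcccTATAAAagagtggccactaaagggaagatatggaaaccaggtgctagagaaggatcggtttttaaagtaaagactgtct
Mmp13: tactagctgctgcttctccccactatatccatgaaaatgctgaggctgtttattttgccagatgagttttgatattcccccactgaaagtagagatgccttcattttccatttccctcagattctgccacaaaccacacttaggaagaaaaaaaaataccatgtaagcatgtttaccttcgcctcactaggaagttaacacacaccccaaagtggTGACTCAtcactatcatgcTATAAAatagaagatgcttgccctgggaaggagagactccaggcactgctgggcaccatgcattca
The AP-1 letters start 63 bases before the start in Mmp7 and in Mmp10 and 35 bases before it in Mmp13, and TATA letters start 26, 29 and 16 bases before it. Mmp7 holds a further TATA match and 1 TCF/LEF match, after its start. Among the 10 Mmps of this stretch, 8 had the AP-1 letters and 9 the TATA letters, and 0 had a GC box. Of the 8 other Mmps with a window, 0 had the AP-1 letters, 1 the TATA letters and 7 a GC box. No window was found for Mmp2, Mmp9, Mmp16, Mmp17 and Mmp19, so their motifs are not known here. Of these, Mmp2, Mmp9 and Mmp19 were highest in AOM/DSS 3. Mmp1a, Mmp1b and Mmp20 hold the AP-1 letters too, but Mmp1a and Mmp1b were at 0 in every library. A match says nothing of binding.

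Collagens that reached 1 FPKM were led by Col16a1, a FACIT chain, in control and curcumin. In AOM/DSS the mean of Col3a1 was highest, through AOM/DSS 3: over AOM/DSS 0 to 2 it was 1.29 FPKM, against 2.99 FPKM for Col16a1 (n = 3). Col16a1 had means of 3.23 ± 2.36, 2.55 ± 1.40 and 4.0 ± 2.05 FPKM in control, AOM/DSS and curcumin (SD, n = 4 each). Summed over the 11 fibrillar chains, the level was 0.483 to 5.76 FPKM in controls, 1.49 to 16.0 FPKM in AOM/DSS and 0.328 to 2.77 FPKM in curcumin. Without AOM/DSS 3 the AOM/DSS range was 1.49 to 4.31 FPKM, within that of the controls. AOM/DSS 3 was highest, followed by control 0 and control 2, and the summed fibroblast genes had the same first 3 libraries. The smooth muscle and endothelial sums had these first 3 libraries too, in other orders, with control 0 highest for endothelium. The beaded filament sum of type VI chains ran from 0.306 to 2.36 FPKM in controls, 0.436 to 4.75 FPKM in AOM/DSS (at most 1.76 FPKM without AOM/DSS 3) and 0.0944 to 0.999 FPKM in curcumin. Col8a1, a short-chain network collagen, differed from these: its highest libraries were curcumin 3 at 2.62 FPKM and control 1 at 2.58 FPKM, and AOM/DSS 3 was at 0.577 FPKM. For curcumin minus AOM/DSS, Col8a1 differed by 0.53 (SE 0.30, limma adjusted p = 0.452).

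Of the type IV chains of basement membrane, Col4a1 and Col4a2 reached 1 FPKM. Col4a1 was highest in AOM/DSS 3 at 2.81 FPKM and then in control 0 at 1.73 FPKM, and Col4a2 in the same 2 libraries in the other order, at 1.17 and 1.30 FPKM. The pair starts head to head, with transcripts that overlap by 22 bases, and the window of Col4a1 (chr8:11312777-11313076 on the minus strand) is shown for that reason, with its GC box in capitals.
Col4a1: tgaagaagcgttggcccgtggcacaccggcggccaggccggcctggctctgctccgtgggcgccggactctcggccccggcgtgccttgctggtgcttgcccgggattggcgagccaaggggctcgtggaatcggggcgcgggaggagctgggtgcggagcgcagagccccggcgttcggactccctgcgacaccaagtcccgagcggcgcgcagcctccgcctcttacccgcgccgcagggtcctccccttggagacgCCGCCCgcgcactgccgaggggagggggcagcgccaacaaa
This window has a GC content of 74.0%, against 39.0% for the window of Mmp7 printed here. Collagen transcripts had a median GC content of 55.1% and those of Mmps 49.0%, against 49.8% for all tested genes.

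**Figure D5:**
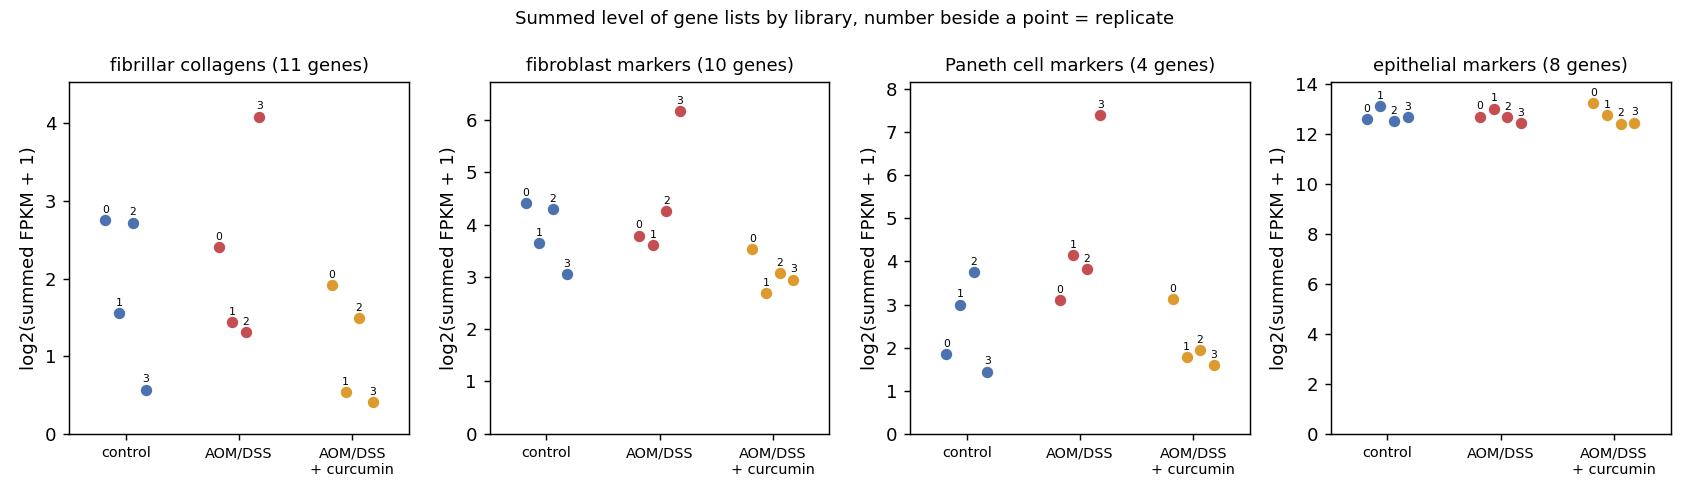
Summed levels of fibrillar collagens and of fibroblast, Paneth cell and epithelial markers, as log2(summed FPKM + 1) (y axes), in the 3 groups (x axis), 1 point per library with its replicate number. AOM/DSS 3 is highest for fibrillar collagens (16.0 FPKM), fibroblast markers (70.9 FPKM, of which Vim 55.9 FPKM) and Paneth cell markers (168 FPKM). Epithelial markers differ little between libraries on this scale.

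Other genes of collagen making and turnover were taken from lists. Of 9 tested genes (13 measured) of collagen modification and folding, 3 (13 measured) of propeptide processing and cross-linking, 8 (14 measured) of basement membrane partners and 4 (11 measured) of the plasminogen system and other Mmp regulators, 0 were called by limma or by limma voom in any of the 3 comparisons. At an unadjusted p below 0.05 there were 5, 2 and 3 of these 24 genes, with the comparisons in the same order as for the markers, and the shares of all tested genes were again 13.5%, 14.5% and 12.2%. Of 4 tested collagen receptors (9 measured), 1 was called, Itga2, the alpha subunit of a collagen-binding integrin. Of all tested genes, 1.27% were called for AOM/DSS minus control and 1.08% for curcumin minus AOM/DSS. Itga2 stood at 2.33, 3.5, 1.43 and 2.48 FPKM in control 0 to 3, at 4.01, 4.67, 5.27 and 6.72 FPKM in AOM/DSS 0 to 3, and at 1.90, 2.09, 2.37 and 2.84 FPKM in curcumin 0 to 3. All AOM/DSS libraries were above all others. Among all tested genes, AOM/DSS lay wholly above control for 2.38%, and curcumin wholly below AOM/DSS for 4.27%. Itga2 rose by 0.86 with AOM/DSS (SE 0.19, limma adjusted p = 0.0493) and fell by 0.89 between AOM/DSS and curcumin (SE 0.19, limma adjusted p = 0.0425). Both calls sit at the threshold: of 22 alternatives, 4 kept the first and 7 the second, and without 1 library they held in 1 and 3 of 12 cases. Median log2 differences over the folding genes were 0.32 for AOM/DSS minus control and -0.26 for curcumin minus AOM/DSS, against 0.015 and -0.0054 over all tested genes; these 2 comparisons share the AOM/DSS libraries.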

How the data were processed

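RNA of 12 libraries, 4 per group, was analysed. The files deposited by the authors hold 1 FPKM value per gene symbol for each library, without header lines. The build mm9 and, among other tools, featureCounts 1.5.1 and TopHat2 2.1.1 stand in the submitters' processing notes; the strand setting and annotation are not given in the sources used here. FPKM were whole multiples of 1 read for 19233 of 19233 genes above 0 (tolerance 0.001), which gave read totals. A gene above 0 in only 1 library cannot fail this check and was taken as 1 read there, the smallest possible count. Values were tested as log2(FPKM + 1), which understates changes of low genes, by limma 3.58.1 (R 4.3.3), using eBayes with a trend, on the 12052 genes at 1 FPKM or more in at least 4 libraries. One model held all 12 libraries and 3 group means, with 9 residual degrees of freedom. P-values were adjusted by Benjamini-Hochberg over all tested genes, with a threshold of 0.05. Simulated data were used to test the script. Library values were given for members called, for those with a group mean of 5 FPKM or more and for the 3 smallest p-values per comparison; other members named with values were chosen after these were seen. Members, gene lists and tests were chosen with earlier results of these data known. Start windows were RefSeq sequences of GRCm38.p6, found for 59 of 75 members, and exon overlaps came from GENCODE M21 on the same build; no coordinates come from the files. Alternatives changed the pseudocount, filter, scaling, covariates, groups fitted, libraries and tool (limma voom on recovered reads); the replicate block with the GC covariate was added after seeing the data.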

Additional observations from a re-analysis of the deposited data

Results flagged for a closer look

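In 59 groups of 4 libraries, the gap of the highest or lowest library to the next was compared with the range of the group. Only members that reached 1 FPKM in the group entered. A gap above Dixon's critical share of the range marks a library far from the others. Its rate of about 1 in 20 groups by chance is for groups not chosen by level, so it does not apply here. It was passed 9 times, 8 of them by AOM/DSS 3. These were Mmp7 at 49.3 FPKM, Sparc at 11.4 FPKM, Dcn at 6.65 FPKM, Mmp10 at 3.28 FPKM, Col18a1, the source of endostatin, at 2.51 FPKM, Mmp2 at 1.54 FPKM, Mmp13 at 1.25 FPKM and Col9a3, a FACIT chain, at 1.04 FPKM. The other AOM/DSS libraries held Col18a1 at 0.256 to 0.537 FPKM and Col9a3 at 0.0306 to 0.0716 FPKM. Postn, periostin, a matrix protein of activated fibroblasts, was at 1.49 FPKM in curcumin 0 and at 0.124 to 0.188 FPKM in the other curcumin libraries. The 8 genes of AOM/DSS 3 come from 1 library and are not independent flags. Of them, Col9a3, Col18a1, Mmp2, Mmp10 and Mmp13 reached 1 FPKM in that library only, so the flagged value itself brought them in.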

How the results depend on the processing

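The count of members called for AOM/DSS minus control, 3 in the report, was 1 without a filter, with only the 2 groups compared, and with the replicate block and GC covariate together (chosen after seeing the data), and 0 within either GC set of libraries taken alone; leaving out 1 library gave 1 to 3. For curcumin minus AOM/DSS the count of 1 became 0 with a filter of 5 FPKM, which does not test Mmp28, and within either GC set; it was 1 in each case with 1 library left out. For curcumin minus control, 0 in the report, it was 0 to 1, with 1 (Timp3) without control replicate 2. Fewer samples enter the fits within the GC sets.

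Mmp28 kept its call in 20 of 22 alternatives in both comparisons (1.20 to 2.11 for AOM/DSS minus control and -1.22 to -0.79 for curcumin minus AOM/DSS), the exceptions being the GC sets alone. Of the 11 differences followed through every alternative, 2 uncalled ones reversed in sign: Timp3 for curcumin minus AOM/DSS within the AT-rich libraries (-0.061) and Mmp14 for curcumin minus control within the GC-rich ones (-0.17); the cause was not tested. Among the other tested members, none of them called, leaving out AOM/DSS 3 also turned the sign of 4 for AOM/DSS minus control (Col3a1, Sparc, Timp2 and Col16a1) and 2 for curcumin minus AOM/DSS (Timp2 and Timp4). With the replicate number as a block, 2 members were called for AOM/DSS minus control (Mmp28 and Mmp14), 1 for curcumin minus AOM/DSS and 0 for curcumin minus control. Deviations of the 12 same-numbered pairs correlated from -0.33 to 0.46, 6 of them above 0.1, and 0 of 12 libraries were closest to their own number in both other groups, so the numbers were not taken as pairs. The numbers go partly with the GC sets, since replicates 0 are all GC-rich and replicates 2 and 3 all AT-rich. Depth limits the 47 members below 1 FPKM: without a filter 68 were tested and 1, 1 and 0 were called, with 5, 7 and 2 (7.35%, 10.3% and 2.94%) at an unadjusted p below 0.05, against 11.4%, 13% and 10.2% of the 19233 genes tested.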
